A study of Homo sapiens with 4 samples.

Results

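The genes described here encode the replicative DNA polymerases alpha, delta and epsilon and the primase that works with polymerase alpha. They are the 10 genes POLA1, POLA2, PRIM1, PRIM2, POLD1, POLD2, POLD3, POLE, POLE2 and POLE3, taken by name from the 15902 genes in the files, whatever their values. Together they hold 177 of the 142206 introns used. Cytoplasmic polyadenylated RNA was sequenced from SUM159, an established triple-negative human breast cancer cell line. The cells had been treated for 12 hours with H3B-8800, a small molecule that inhibits the spliceosome, or for 12 hours with its vehicle DMSO. Each group had 2 libraries, which the submitters call biological duplicates. The model p-values use the spread between these libraries of 1 cell line, moderated by the spread over all features tested. The comparison asks what splicing inhibition did to spliced and to intron-containing RNA in the cytoplasm.

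Eukaryotic DNA replication divides its work among specialised polymerases. The polymerase alpha-primase complex lays down a short RNA-DNA primer, polymerase epsilon then extends the leading strand and polymerase delta the lagging strand. Each complex pairs a catalytic subunit with accessory subunits that hold it together or tie it to the sliding clamp, and transcription of many of these genes rises as cells enter S phase under E2F transcription factors.

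For each intron the files gave the reads inside it, called intronic reads, and allowed the reads that span it, called spliced reads, to be computed. Reads over several introns were counted at each, so levels of spliced reads, in CPM (counts brought to 1 library size), were compared between groups within a gene and not between genes. Library totals were 58000000 and 62000000 reads for H3B-8800 and 64000000 for both DMSO libraries. All 9 mesenchymal markers listed for this line were present at 7.51 to 6075 CPM of spliced reads. The hormone receptor genes ESR1 and PGR were at 0 in all 4 libraries, CDH1 was at no more than 0.0875 CPM, but 3 of the 7 markers listed as low or absent, ERBB2, GATA3 and EPCAM, reached 1 CPM in some library, ERBB2 with 31.2 to 39.2 CPM. Of markers of other cells, CD3E and ALB were at 0 in every library, while PECAM1 had 4.99 and 2.66 CPM under H3B-8800 and 2.64 and 1.88 CPM under DMSO.

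Spliced RNA of 9 of the 10 genes fell under H3B-8800, and that of POLE3 rose (edgeR's quasi-likelihood test over 9468 genes, threshold 0.05 for the Benjamini-Hochberg adjusted p). Of all genes tested, 32.7% fell and 32.8% rose. Over the 10 genes the median log2 change was -0.87, and over all tested genes it was 0.01. All 3 catalytic polymerase subunits fell by at least 1 on the log2 scale: POLD1 by 2.53, POLA1 by 1.25 and POLE by 1.10. Changes are given on the TMM scale, which centres the genes tested. Scaled to library totals, the median of all genes moved to -0.16 and 36.2% of calls were rises, against 3102 rises and 3097 falls with TMM, while 9 of the 10 genes still passed as lower and POLE3 as higher. In bulk RNA, fewer cells in a phase of the cell cycle and less RNA per cell cannot be told apart.

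**Figure D1:**
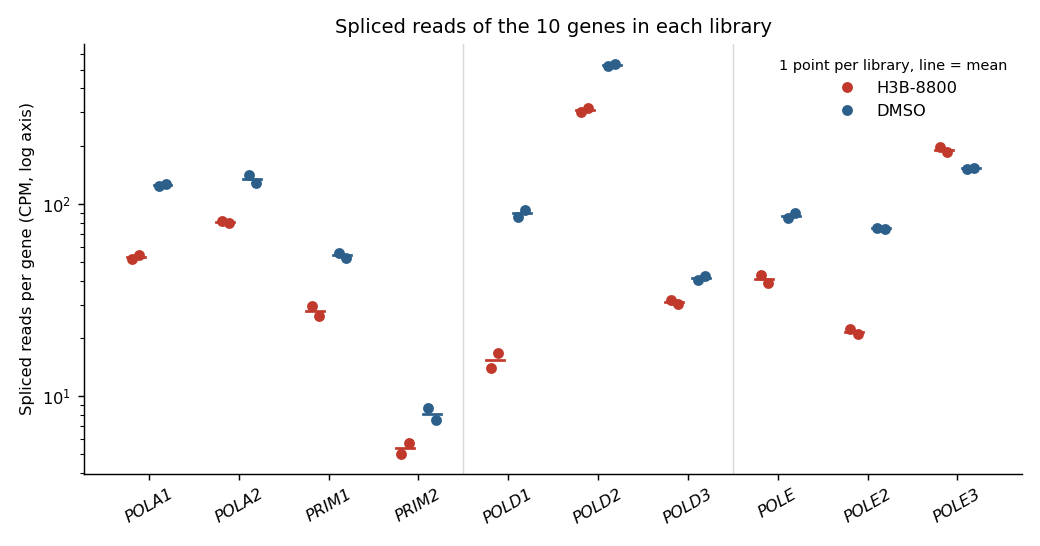
Spliced reads of each gene in CPM on a log axis, with 1 point per library, a line at the mean, and H3B-8800 (2 libraries) left of DMSO (2 libraries). The groups lie widest apart in POLD1, with 14.1 and 16.8 CPM under H3B-8800 against 86.1 and 93.0 CPM under DMSO. In POLE3 both H3B-8800 libraries lie above both DMSO libraries, and in the other genes they lie below. How often the groups separate among all genes was not counted. Of all genes tested, 32.7% passed as lower and 32.8% as higher.

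Promoters were searched for letters typical of E2F sites, since 9 of these genes fell together. RefSeq promoter sequence on GRCh38.p14 was at hand for 9 of the 10 genes, all but POLD3. The octamers TTTCCCGC, TTTGGCGC, TTTCGCGC and TTTGCCGC were searched on both strands from 250 bases before to 50 bases after the start site. A single match was found in each of 4 of the 9 genes, while 3.31% of 35116 promoters of the same length held at least 1. They begin at position -137 in POLA1, -53 in POLA2, -18 in POLE and -5 in POLE2, counted from the start site. Where RefSeq gave several start sites, the one nearest upstream of the first listed intron was used, and over all start sites the count was also 4 genes. The pentamer CCAAT on either strand was found in 4 of the 9 genes, against 34.6% of promoters. The 4 promoters with an E2F-type octamer are shown from 140 bases before to 10 bases after the start site, with the octamer in capitals, and beside them the promoter of POLE3, the gene that rose. None of the 4 octamers was found in POLE3, nor in PRIM1, PRIM2, POLD1 and POLD2, which fell. With only 1 rising gene, the matches cannot show whether they go with the direction of change, which was not tested. A match to these letters is a description and not a measured binding site.
POLA1, chrX:24693778-24693927, plus strand: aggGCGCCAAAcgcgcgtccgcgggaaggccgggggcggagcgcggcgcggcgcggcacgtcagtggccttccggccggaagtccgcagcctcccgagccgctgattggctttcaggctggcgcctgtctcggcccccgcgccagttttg
POLA2, chr11:65261822-65261971, plus strand: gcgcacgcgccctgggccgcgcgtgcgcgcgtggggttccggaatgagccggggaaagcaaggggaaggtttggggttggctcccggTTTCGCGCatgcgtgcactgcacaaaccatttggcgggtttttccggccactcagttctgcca
POLE, chr12:132687333-132687482, minus strand: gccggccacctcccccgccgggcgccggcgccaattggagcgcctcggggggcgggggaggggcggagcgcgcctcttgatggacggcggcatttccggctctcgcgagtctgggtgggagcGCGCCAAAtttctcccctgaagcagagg
POLE2, chr14:49688205-49688354, minus strand: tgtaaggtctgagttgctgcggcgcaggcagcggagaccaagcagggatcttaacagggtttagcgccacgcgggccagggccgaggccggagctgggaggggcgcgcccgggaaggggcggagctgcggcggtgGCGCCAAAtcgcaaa
POLE3, chr9:113410365-113410514, minus strand: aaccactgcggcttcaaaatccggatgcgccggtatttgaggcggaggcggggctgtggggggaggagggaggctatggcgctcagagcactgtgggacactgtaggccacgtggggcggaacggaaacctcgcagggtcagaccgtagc

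The polymerase alpha-primase complex fell in all 4 subunits. POLA1, the catalytic subunit that extends the RNA primer with DNA (chromosome X, 24693919 to 24996986 on hg38), had 52.0 and 54.0 CPM of spliced reads under H3B-8800, against 125 and 128 CPM under DMSO. The groups did not overlap, and spliced reads fell by 1.25 on the log2 scale (SE 0.07; Benjamini-Hochberg adjusted p = 7.15e-09 by edgeR), to 42.0% of the DMSO level. POLA2, the accessory subunit that links the catalytic subunit to primase (chromosome 11, 65261762 to 65305589), had 81.7 and 79.3 CPM under H3B-8800 and 141 and 129 CPM under DMSO. Both H3B-8800 libraries again lay below both DMSO libraries, with a log2 change of -0.75 (SE 0.07; Benjamini-Hochberg adjusted p = 6.39e-07 by edgeR). PRIM1, the catalytic subunit of primase (chromosome 12, 56731596 to 56752373), had 29.3 and 26.1 CPM under H3B-8800 and 55.7 and 52.5 CPM under DMSO, a log2 change of -0.97 (SE 0.09; Benjamini-Hochberg adjusted p = 8.35e-07 by edgeR). Its groups stood apart as well.

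PRIM2, the large primase subunit with an iron-sulphur cluster (chromosome 6, 57314805 to 57646849), gave the least certain value. It had 57 and 71 spliced reads under H3B-8800 and 125 and 108 under DMSO, or 4.99 and 5.72 CPM under H3B-8800 against 8.70 and 7.52 CPM under DMSO. The groups did not overlap, and the log2 change was -0.60 (SE 0.21; Benjamini-Hochberg adjusted p = 0.0258 by edgeR). The call was lost with DESeq2 (adjusted p = 0.0618), without the most-read intron (0.145), and when any of 3 libraries was left out: H3B-8800 replicate 1 (0.112), replicate 2 of the same group (0.0563) or DMSO replicate 1 (0.158), and the adjusted p ranged from 0.00594 to 0.702 over the alternatives. With each gene's lowest spliced count subtracted, the value turned to 0.25. Only 3 of the 13 introns of its transcript were listed, and PRIM2BP, a pseudogene of PRIM2 on the same chromosome, makes its reads uncertain.

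Polymerase delta held the largest fall among the 10 genes. POLD1, the catalytic and proofreading subunit (chromosome 19, 50384204 to 50418016), had 161 and 208 spliced reads under H3B-8800, against 1237 and 1337 under DMSO. In CPM these were 14.1 and 16.8 under H3B-8800 and 86.1 and 93.0 under DMSO, with means of 15.4 ± 1.89 under H3B-8800 and 89.6 ± 4.94 under DMSO (SD, n = 2 each). The groups lay far apart relative to this spread, and spliced reads fell by 2.53 on the log2 scale (SE 0.10; Benjamini-Hochberg adjusted p = 5.23e-10 by edgeR), to 17.3% of the DMSO level. Of all genes tested, 0.539% had a lower log2 change. A fall of at least 1 on the log2 scale that passed the test was seen in 10.7% of genes, and one of at least 2 in 1.57%.

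The other subunits of polymerase delta had smaller log2 changes. POLD2, the scaffold subunit that binds both the catalytic subunit and POLD3 (chromosome 7, 44114681 to 44124358), had 302 and 314 CPM of spliced reads under H3B-8800 and 521 and 538 CPM under DMSO, a log2 change of -0.78 (SE 0.05; Benjamini-Hochberg adjusted p = 1.14e-08 by edgeR). POLD3, which binds the sliding clamp and also serves the translesion polymerase zeta (chromosome 11, 74493851 to 74669117), had 31.6 and 30.1 CPM under H3B-8800 and 40.3 and 42.3 CPM under DMSO. Its log2 change of -0.42 (SE 0.09; Benjamini-Hochberg adjusted p = 9.86e-04 by edgeR) was the smallest fall among the 10 genes. Neither gene's groups overlapped. POLD4, a small subunit that is not one of the 10, was near the detection limit, with 1.22 and 2.26 CPM under H3B-8800 and 2.16 and 2.57 CPM under DMSO. Its groups overlapped, and it did not pass (log2 change -0.43, SE 0.40; Benjamini-Hochberg adjusted p = 0.362 by edgeR).

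Polymerase epsilon was divided between falling and rising subunits. POLE, the catalytic and proofreading subunit (chromosome 12, 132623753 to 132687365), had 42.6 and 38.8 CPM of spliced reads under H3B-8800, against 84.5 and 89.4 CPM under DMSO, a log2 change of -1.10 (SE 0.08; Benjamini-Hochberg adjusted p = 7.64e-08 by edgeR). POLE2, its accessory subunit (chromosome 14, 49643555 to 49688422), had 22.4 and 21.0 CPM under H3B-8800 and 75.4 and 74.0 CPM under DMSO. This was a log2 change of -1.78 (SE 0.09; Benjamini-Hochberg adjusted p = 2.55e-09 by edgeR), to 29.1% of the DMSO level, the second largest fall after that of POLD1. In both genes the H3B-8800 libraries lay below the DMSO libraries.

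POLE3, a histone-fold subunit that also belongs to a chromatin remodelling complex (chromosome 9, 113407235 to 113410672), had 197 and 187 CPM of spliced reads under H3B-8800 and 153 and 154 CPM under DMSO. Here the H3B-8800 libraries were the higher ones, by 0.32 on the log2 scale (SE 0.06; Benjamini-Hochberg adjusted p = 1.98e-04 by edgeR). Its 3 introns changed by 0.18, 0.11 and 0.37 on the log2 scale, and of these only intron 3 passed, with 1794 and 1875 spliced reads under H3B-8800 and 1690 and 1736 under DMSO. Without the most-read intron of each gene, the change of POLE3 was 0.17 and did not pass (Benjamini-Hochberg adjusted p = 0.145 by edgeR; its range over the alternatives was 1.47e-06 to 0.145), and it was 0.15 and passed when libraries were scaled to their totals. POLE4, the histone-fold partner of POLE3, had 45.8 and 47.9 CPM under H3B-8800 and 67.5 and 74.3 CPM under DMSO, and fell by 0.60 on the log2 scale (SE 0.08; Benjamini-Hochberg adjusted p = 2.37e-05 by edgeR).

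Within a library, the ratio of spliced reads of 2 subunits does not depend on depth, and 8 such pairs within a complex were compared. Spliced reads of POLD1 per spliced read of POLD2 were 0.0466 and 0.0533 under H3B-8800 and 0.165 and 0.173 under DMSO. Spliced reads of POLE2 per read of POLE3 were 0.114 and 0.112 under H3B-8800 and 0.494 and 0.480 under DMSO. Spliced reads of POLE per read of POLE3 were 0.216 and 0.207 under H3B-8800, against 0.554 and 0.580 under DMSO. The catalytic or accessory subunit was thus lower relative to its partner in both H3B-8800 libraries. Smaller shifts were seen for POLA1 per read of POLA2, at 0.636 and 0.681 under H3B-8800 and 0.882 and 0.990 under DMSO, and for PRIM1 per read of POLA2, at 0.359 and 0.329 under H3B-8800 and 0.395 and 0.406 under DMSO. Of the 8 pairs, only POLD3 per read of POLD2 was higher under H3B-8800, at 0.105 and 0.0959, against 0.0774 and 0.0786 under DMSO. In none of the 8 did the groups overlap. How many other gene pairs separate in this way was not counted, and several genes serve in more than 1 of the 8 pairs. Each pair gave a two-sided exact permutation p of 0.333, the smallest that 2 libraries against 2 allow, so adjustment over the pairs could not bring any below 0.05.

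At single introns, spliced reads fell at most introns of these genes. Of the 177 introns, 150 had enough spliced reads to test. Of these, 107 were lower under H3B-8800 and 1 was higher, intron 3 of POLE3 (edgeR's quasi-likelihood test over 66136 introns, Benjamini-Hochberg adjusted p under 0.05). Among all introns tested, 23.9% were lower and 19.1% were higher, and scaled to library totals 29.1% of calls were rises, against 44.4% with TMM. In CPM, both H3B-8800 libraries were lower than both DMSO libraries at 133 of the 150 tested introns, against 38.2% of all tested introns. Without either H3B-8800 library no intron of any gene passed (edgeR), although 97 introns of these genes were lower at an unadjusted p under 0.05 without replicate 1 and 91 without replicate 2. DESeq2 on all 4 libraries called 76 lower.

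POLD1 fell along its whole length: of its 22 tested introns, 21 were lower, with log2 changes between -3.65 and -1.17. Intron 12 had 21 and 31 spliced reads under H3B-8800 against 119 and 141 under DMSO, and intron 8 had 11 and 30 under H3B-8800 against 125 and 167 under DMSO. Split in 5′ to 3′ order into 3 parts of nearly equal intron number, it changed by -2.61, -2.49 and -2.53 on the log2 scale. POLD2 was as even, with 9 of 9 introns lower and parts at -0.77, -0.78 and -0.78, and so was POLA2, with 16 of 17 lower and parts at -0.75, -0.73 and -0.76.

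POLA1 and POLE2 fell more towards the 3′ end, a pattern noticed in these values and not tested. The 3 parts of POLA1 changed by -0.86, -1.29 and -1.41, and 22 of its 29 tested introns were lower. Near its start, intron 6 had 35 and 38 spliced reads under H3B-8800 and 50 and 48 under DMSO and did not pass, while intron 29 had 113 and 105 under H3B-8800 and 375 and 293 under DMSO (log2 change -1.34, SE 0.14). In POLE2, 13 of 14 tested introns were lower and the parts stood at -1.61, -1.59 and -2.02. The last listed intron of POLE2 had 36 and 53 spliced reads under H3B-8800 against 252 and 243 under DMSO. In POLE the parts were -0.90, -1.11 and -1.16 with 15 of 30 lower, in PRIM1 -1.07, -1.05 and -0.82 with 9 of 12 lower, and in POLD3 -0.25, -0.60 and -0.26 with 2 of 11 lower. None of the 3 introns of PRIM2 passed alone.

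**Figure D2:**
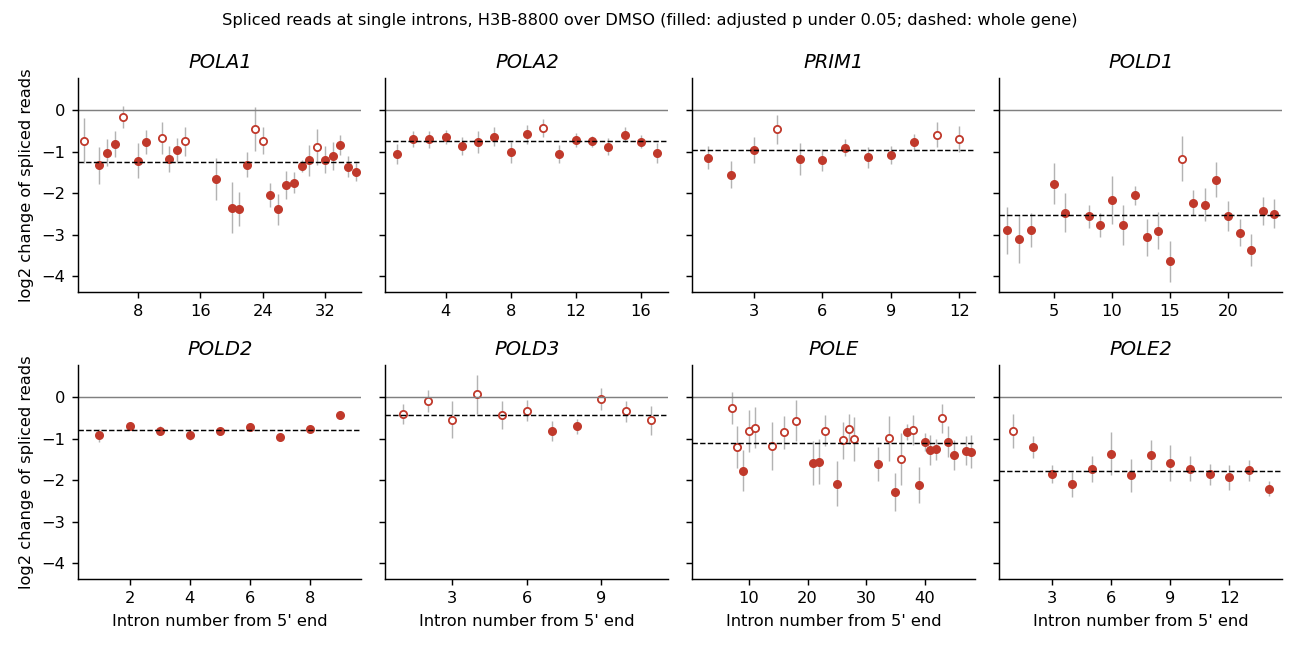
The log2 change of spliced reads, H3B-8800 over DMSO (2 libraries each), at each tested intron of 8 genes, numbered from the 5′ end, with bars of 1 SE. Filled points passed the test and the dashed line is the change of the whole gene, which is -2.53 in POLD1. Single introns of POLD1 range from -3.65 to -1.17, and those of POLA1 from -2.39 to -0.15.

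The share of intronic reads in these genes was larger under H3B-8800 than under DMSO. Summed over the 10 genes, intronic reads numbered 734 and 747 under H3B-8800 and 536 and 567 under DMSO, while spliced reads numbered 8888 and 9595 under H3B-8800 and 18538 and 18793 under DMSO. Intronic reads thus made up 7.43% ± 0.29 of the reads under H3B-8800 and 2.87% ± 0.084 under DMSO (SD, n = 2 each). Both H3B-8800 libraries were above both DMSO libraries, with an exact permutation p of 0.333, the smallest possible. Over all listed genes the share was 8.22% under H3B-8800 and 4.24% under DMSO. In introns that overlap no annotated exon, the share of the 10 genes was 5.50% ± 0.87 under H3B-8800 and 1.96% ± 0.060 under DMSO (SD, n = 2 each).

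Scaled to library totals, intronic reads passed as higher in 4 of the 9 genes that could be tested and as lower in 1 (edgeR's quasi-likelihood test over 7900 genes, Benjamini-Hochberg adjusted p under 0.05). Among all genes tested, 58.3% were higher and 4.37% lower. The median log2 change was 0.46 over the 9 genes and 1.04 over all genes. TMM scaling of the intronic reads themselves centres that general rise on 0 and made 50.2% of calls rises, against 93.0% with library totals. On that scale 1 of the 9 genes was higher and 3 were lower, and the values of POLA1, POLD1 and POLE turned negative.

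Between them the genes covered a wide range. POLE3 had 89 and 123 intronic reads under H3B-8800 and 14 and 14 under DMSO, a 7.99-fold rise (SE 0.33 on the log2 scale; Benjamini-Hochberg adjusted p = 5.3e-08 by edgeR). POLD2 had 92 and 108 under H3B-8800 and 37 and 35 under DMSO, a change of 1.56 (SE 0.27), and POLA2 had 65 and 71 under H3B-8800 and 32 and 34 under DMSO, a change of 1.13 (SE 0.31). The groups of these genes stood apart. With TMM scaling of intronic reads, POLE3 still passed at 1.98. The calls of POLD2 (0.54, adjusted p = 0.125 by edgeR) and POLA2 (0.11, adjusted p = 0.801 by edgeR) were lost. POLA1 had 260 and 212 intronic reads under H3B-8800 and 173 and 179 under DMSO, a change of 0.52 (SE 0.17; Benjamini-Hochberg adjusted p = 0.00952 by edgeR), which became -0.50 with TMM scaling. In introns without an annotated exon, POLA1 changed by 0.31 (adjusted p = 0.174 by edgeR) and POLD2 by 0.89 (adjusted p = 0.27 by edgeR). Both calls were lost there.

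POLD1, whose spliced reads fell most, had 71 and 93 intronic reads under H3B-8800 and 51 and 76 under DMSO. The raw counts overlapped, while scaled to library totals both H3B-8800 libraries lay just above both DMSO libraries. The log2 change of 0.46 (SE 0.27) did not pass (Benjamini-Hochberg adjusted p = 0.142 by edgeR). In its 18 introns without an annotated exon, POLD1 had 36 and 30 intronic reads under H3B-8800 and 5 and 13 under DMSO. There the log2 change was 1.96 and passed (Benjamini-Hochberg adjusted p = 0.00673 by edgeR). Over all their listed introns, POLE, POLE2 and PRIM1 did not pass, with log2 changes of 0.19 (SE 0.25), -0.11 (SE 0.49) and -0.09 (SE 0.59). PRIM2 had 0 intronic reads in all 4 libraries over its 3 listed introns. Without H3B-8800 replicate 1 or replicate 2 none of the 9 genes passed, and neither did any other gene (edgeR). At an unadjusted p under 0.05, 3 were then higher and 1 lower without replicate 1, and 4 higher and 1 lower without replicate 2.

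The ratio of intronic to spliced reads rose in 7 of 9 tested genes and fell in POLD3 (edgeR's quasi-likelihood test of the interaction over 7566 genes, Benjamini-Hochberg adjusted p under 0.05). Of all genes tested, the ratio rose in 65.4% and fell in 2.35%, with a median log2 change of 1.35, against 1.94 over the 9 genes. A fall of spliced reads alone also raises this ratio. It rose most in POLD1, by 3.18 on the log2 scale (SE 0.29; Benjamini-Hochberg adjusted p = 1.7e-07 by edgeR), where intronic reads were 30.6% and 30.9% of reads under H3B-8800 and 3.96% and 5.38% under DMSO. It rose by 2.85 in POLE3 (SE 0.32) and by 2.52 in POLD2 (SE 0.24). These 3 rises also passed with DESeq2's own size factors, which centre the ratio changes of all genes and made 45.5% of calls rises, against 96.5% in the edgeR test.

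The ratio also rose in POLA2 by 2.06 (SE 0.28), in POLA1 by 1.94 (SE 0.23), in POLE2 by 1.86 (SE 0.41) and in POLE by 1.46 (SE 0.27). With DESeq2's own size factors these calls were lost, at 0.64 in POLA2 (adjusted p = 0.0849), 0.52 in POLA1 (0.0782), 0.46 in POLE2 (0.454) and 0.04 in POLE (0.923). With equal size factors, a run added after seeing the data, DESeq2 called all 7 higher and POLD3 lower. In POLA1 the intronic share was 30.4% and 24.0% under H3B-8800, against 8.81% and 8.88% under DMSO. These groups stood apart, as did those of POLD1. PRIM1 had a ratio change of 1.05 (SE 0.48) and did not pass (Benjamini-Hochberg adjusted p = 0.0645 by edgeR; its range over the alternatives was 0.0238 to 0.647), but it passed with replicate numbers as a block (0.0401), without H3B-8800 replicate 2 (0.0453) and without DMSO replicate 1 (0.0238).

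**Figure D3:**
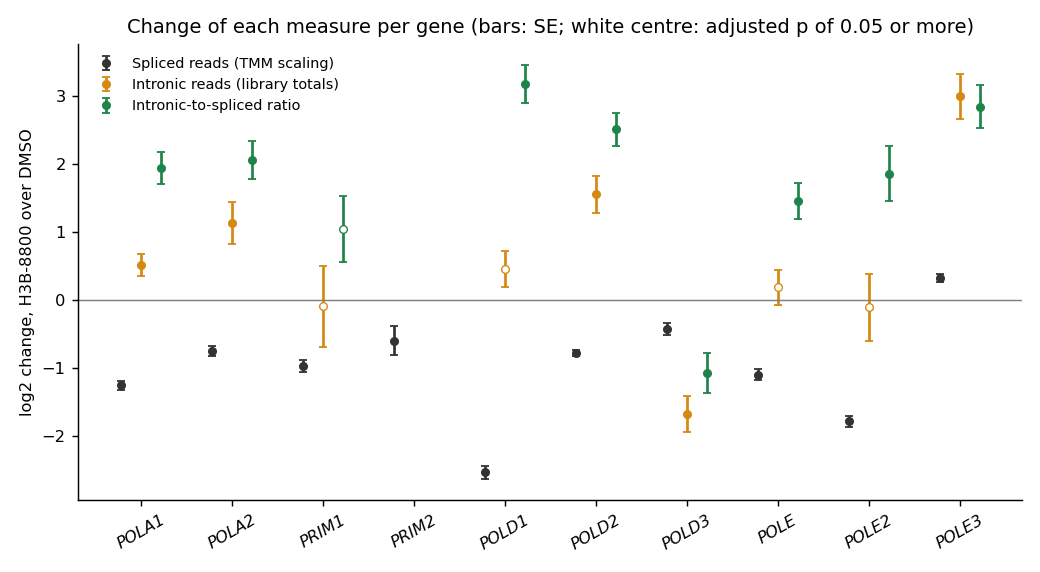
The log2 change, H3B-8800 over DMSO, of spliced reads, intronic reads and their ratio for each gene, with bars of 1 SE and a white centre where the adjusted p was 0.05 or more (2 libraries per group). Spliced reads lie below 0 in all genes but POLE3, and the ratio lies above 0 in all but POLD3; PRIM2 has no intronic reads.

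POLD3 went the other way. It had 31 and 36 intronic reads under H3B-8800, against 109 and 119 under DMSO, and they fell by 1.67 on the log2 scale (SE 0.27; Benjamini-Hochberg adjusted p = 1.19e-05 by edgeR). Its ratio fell by 1.07 (SE 0.29; Benjamini-Hochberg adjusted p = 0.00421 by edgeR). Introns 2 and 8 held 85.1% of these intronic reads, and both overlap part of an annotated POLD3 exon on the same strand. Intron 2 (chromosome 11, 74594117 to 74604691) had 15 and 21 intronic reads under H3B-8800 and 82 and 80 under DMSO, and intron 8 (74625574 to 74629216) had 6 and 3 under H3B-8800 and 20 and 24 under DMSO. The other 9 introns together had 10 and 12 under H3B-8800 and 7 and 15 under DMSO. In the 7 introns without an annotated exon the share was 3.72% and 3.69% under H3B-8800 and 1.27% and 1.74% under DMSO, so the direction turned. This share rested on 8 and 8 intronic reads under H3B-8800 and 4 and 6 under DMSO.

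Few single introns carried enough intronic reads to test. Of the 177, 65 had none in any library. Of 17 tested, 5 were higher and 4 lower (edgeR over 12013 introns, Benjamini-Hochberg adjusted p under 0.05), against 48.2% and 5.74% of all introns tested. With TMM scaling 52.5% of all calls were rises, against 89.4% with library totals. Intron 3 of POLE3, intron 23 of POLA1 and the 3 tested introns of POLA2 met the minimum mean of 10 reads only through their H3B-8800 reads. Intron 8 of POLD3 met it only through its DMSO reads. Calls at these introns are therefore not independent of that filter. The ratio could be tested at 16 and was higher at 11 and lower at 1, intron 2 of POLD3, against 56.5% and 2.88% of 9937 introns. Of the 11 higher ratios, 3 also passed with DESeq2's own size factors (introns 26 of POLA1, 1 of POLD2 and 1 of POLE3), where 51.0% of all calls were rises, against 95.2% in the edgeR test. Without a low-count filter 4 of the 11 passed, these 3 and intron 3 of POLE3, and the lower ratio at intron 2 of POLD3 did not (adjusted p = 0.252); nor did it without H3B-8800 replicate 2 (0.0635).

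Among the 17 tested introns, those of POLE3 had the strongest rises of intronic reads. Its intron 3 (chromosome 9, 113408984 to 113409609), which overlaps no annotated exon, had 20 and 26 intronic reads under H3B-8800 and 2 and 0 under DMSO. Intronic reads rose there by 4.45 on the log2 scale (SE 0.91; Benjamini-Hochberg adjusted p = 0.00212 by edgeR) and the ratio by 4.26 (SE 0.72). With so few DMSO reads the size is uncertain: without DMSO replicate 2 the rise of intronic reads was 3.53, and without DMSO replicate 1, which leaves DMSO at 0 reads, the fitted value was 7.56. With DESeq2's own size factors the ratio did not pass there (adjusted p = 0.101). Its intron 1 had 64 and 90 intronic reads under H3B-8800 and 12 and 12 under DMSO, with rises of 2.76 (SE 0.35) and of 2.75 in the ratio (SE 0.39). In each the groups stood apart. An exon of C9orf43 on the opposite strand overlaps intron 1, and spliced reads of C9orf43 were 0.962 and 0.725 CPM under H3B-8800 and 3.06 and 1.39 CPM under DMSO; the part of that gene in the result was not tested.

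Intron 1 of POLE3 held most intronic reads of the short introns of these genes, and many of their spliced reads. Of 16 introns of at most 100 bases, the 15 others had 1 and 14 intronic reads in all under H3B-8800 and 4 and 3 under DMSO. Spliced reads of all 16 numbered 404 and 400 under H3B-8800 and 835 and 855 under DMSO. POLE3 intron 1 gave 265 and 264 of these under H3B-8800 and 294 and 270 under DMSO. Intronic counts of introns with unlike spliced reads are therefore not comparable. The sequence of POLE3 intron 1 was read from a GENCODE release 29 transcript that keeps it. It is given with those of 2 short introns that were also read from transcripts, with the first and last pair of bases in capitals. Intron 21 of POLD1 had 0 intronic reads in all 4 libraries, beside 11 and 8 spliced reads under H3B-8800 and 75 and 104 under DMSO. Intron 3 of PRIM1 had 0 and 2 intronic reads under H3B-8800 and 0 and 0 under DMSO. Its spliced reads were 23 and 17 under H3B-8800 and 52 and 42 under DMSO. Among the last 20 bases before the closing AG, 16 were pyrimidines in POLE3 intron 1, 17 in POLD1 intron 21 and 11 in PRIM1 intron 3.
POLE3 intron 1, chr9:113410141-113410227, minus strand: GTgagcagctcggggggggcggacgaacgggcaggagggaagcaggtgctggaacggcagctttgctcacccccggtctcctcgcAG
POLD1 intron 21, chr19:50416529-50416609, plus strand: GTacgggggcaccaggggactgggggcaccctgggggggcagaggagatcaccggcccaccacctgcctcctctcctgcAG
PRIM1 intron 3, chr12:56746855-56746925, minus strand: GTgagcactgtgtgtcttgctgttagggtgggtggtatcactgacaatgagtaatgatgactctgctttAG

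In polymerase alpha-primase, the ratio could be tested at single introns of POLA1 and POLA2. Intron 26 of POLA1 (chromosome X, 24748993 to 24809897), 60905 bases long, had 34 and 26 intronic reads under H3B-8800 and 11 and 18 under DMSO, and 6 and 9 spliced reads under H3B-8800 against 49 and 47 under DMSO. Its ratio rose by 3.71 (SE 0.67; Benjamini-Hochberg adjusted p = 6.3e-04 by edgeR), while intronic reads alone did not pass. Part of it is overlapped by an annotated POLA1 exon on the same strand and by the pseudogene EEF1B2P3 on the opposite strand. In intron 23 the ratio rose by 3.01 (SE 1.12; Benjamini-Hochberg adjusted p = 0.0358 by edgeR), a call that was lost with replicate numbers as a block (0.0647), with DESeq2's own size factors (0.28), without a low-count filter (0.288) and without DMSO replicate 1 (0.111), and the small RNA gene SCARNA23 lies in it on the same strand, which makes its reads uncertain. Intron 36 ran the other way in intronic reads, with 15 and 12 under H3B-8800 and 30 and 50 under DMSO (log2 change -1.46, SE 0.45; Benjamini-Hochberg adjusted p = 0.0176 by edgeR), and its ratio did not pass at 0.22 (SE 0.51). The intronic call was lost without either H3B-8800 library (0.191 for replicate 1, 0.248 for replicate 2) or DMSO replicate 2 (0.116).

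Intron 15 of POLA1, picked after its values were seen, held 47.5% of the gene's intronic reads. It had 128 and 100 under H3B-8800 and 84 and 79 under DMSO, beside 2 and 2 spliced reads under H3B-8800 and 14 and 12 under DMSO. In POLA2 the ratio rose in all 3 tested introns, by 2.60 in intron 4 (SE 0.60), 2.42 in intron 13 (SE 0.55) and 2.35 in intron 10 (SE 0.59). An annotated POLA2 exon on the same strand overlaps part of intron 10. Intron 4 had 18 and 20 intronic reads under H3B-8800 and 10 and 2 under DMSO, and intron 13 had 24 and 16 under H3B-8800 and 5 and 10 under DMSO. In both the groups stood apart. No intron of PRIM1 had enough intronic reads: its most-read ones, introns 9 and 12, had 2 and 2, and 10 and 2, under H3B-8800 and 8 and 6, and 5 and 0, under DMSO.

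In polymerase delta, intron 1 of POLD2 (chromosome 7, 44118065 to 44121833) had 58 and 59 intronic reads under H3B-8800 and 15 and 22 under DMSO, a rise of 1.75 (SE 0.35; Benjamini-Hochberg adjusted p = 0.00194 by edgeR), and its ratio rose by 2.84 (SE 0.42). It holds part of another POLD2 exon. Intron 20 of POLD1 (chromosome 19, 50415827 to 50416395) lies whole within an annotated retained_intron transcript of POLD1 and gave 50.2% of the gene's intronic reads. It had 25 and 35 intronic reads under H3B-8800 and 34 and 52 under DMSO, so these groups overlapped, while its spliced reads were 4 and 16 under H3B-8800 and 65 and 77 under DMSO. Its ratio rose by 2.38 (SE 0.59; Benjamini-Hochberg adjusted p = 0.00439 by edgeR) although its intronic reads changed by -0.43 (SE 0.36), which did not pass.

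In polymerase epsilon, the ratio rose in intron 45 of POLE by 2.04 (SE 0.69) and in intron 8 of POLE2 by 2.14 (SE 0.86). Intron 45 of POLE had 22 and 10 intronic reads under H3B-8800 and 14 and 10 under DMSO, and intron 8 of POLE2 had 14 and 12 under H3B-8800 and 18 and 3 under DMSO. In neither did intronic reads separate the groups, and both calls of the ratio were weak. That of POLE intron 45 (Benjamini-Hochberg adjusted p = 0.0238 by edgeR) was lost with DESeq2's own size factors (0.653), without a low-count filter (0.378) and without either H3B-8800 library (0.162 for replicate 1, 0.056 for replicate 2) or DMSO replicate 2 (0.124). That of POLE2 intron 8 (Benjamini-Hochberg adjusted p = 0.047 by edgeR) was lost with DESeq2's own size factors (0.568), without the filter (0.341), with the replicate block (0.0627) and without either H3B-8800 library (0.0905 for replicate 1, 0.213 for replicate 2) or DMSO replicate 2 (0.208), where the value was 1.22. Intron 39 of POLE overlaps part of an annotated POLE exon on the same strand. It had fewer intronic reads under H3B-8800, 8 and 12, than under DMSO, 24 and 33 (log2 change -1.41, SE 0.49; Benjamini-Hochberg adjusted p = 0.0318 by edgeR), and a ratio that did not pass (0.90, SE 0.74). Its intronic call was lost with the replicate block (0.0554), without the filter (0.112), with DESeq2 on library totals (0.0664) and without either H3B-8800 library (0.18 for replicate 1, 0.141 for replicate 2) or DMSO replicate 2 (0.14).

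**Figure D4:**
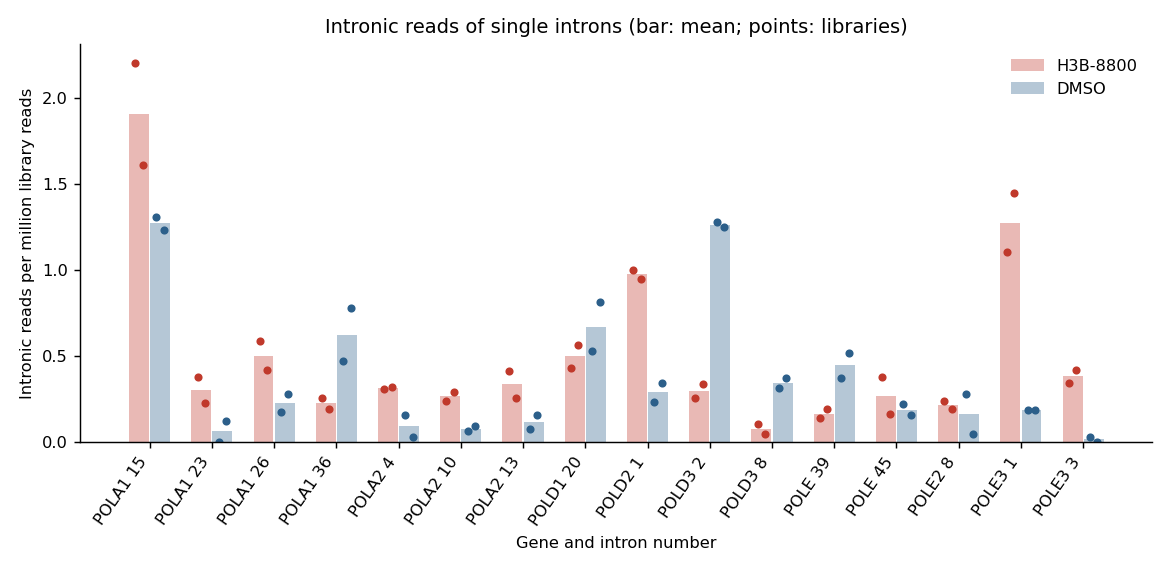
Intronic reads, scaled to library totals, at the introns named in the text whose ratio could be tested, plus intron 15 of POLA1, with bars at the mean, 1 point per library and H3B-8800 left of DMSO. Introns 1 and 3 of POLE3 and intron 1 of POLD2 stand higher under H3B-8800, and introns 2 and 8 of POLD3 stand lower.

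Other genes of the replication fork also fell in most cases, by lists chosen with earlier results of these data known. Among all genes tested, 32.7% fell and 32.8% rose. Of 26 tested helicase, origin and firing factors, 20 fell and 5 rose, with a median log2 change of -0.61. CDC45, part of the replicative helicase, had 39.5 and 36.3 CPM of spliced reads under H3B-8800 and 198 and 194 CPM under DMSO, and MCM7, a subunit of its ring, fell by 1.91 (SE 0.06). The helicase subunit GINS1 rose by 1.27 (SE 0.11) and the origin recognition subunit ORC4 by 0.97 (SE 0.07). Of 20 genes of the clamp, clamp loader, single-strand binding and Okazaki fragment maturation, 12 fell and 1 rose, with a median of -0.47. The sliding clamp PCNA fell by 1.14 (SE 0.06) and RNASEH2A, a subunit of the enzyme that removes RNA from DNA, by 1.30 (SE 0.07), while the single-strand binding subunit RPA2 rose by 0.20 (SE 0.08). Of 13 fork protection and coupling genes, 8 fell and 2 rose, with a median of -0.87; the histone chaperone genes CHAF1B (-1.70, SE 0.07) and ASF1B (-1.47, SE 0.09) fell, and ASF1A (0.61, SE 0.11) and MMS22L (0.38, SE 0.09) rose.

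DNA polymerases outside the fork moved both ways. Of 14 tested, 6 fell and 2 rose, with a median of -0.29, against 32.7% falls and 32.8% rises among all genes tested. POLG, the mitochondrial polymerase, had 37.3 and 34.9 CPM of spliced reads under H3B-8800 and 92.0 and 91.7 CPM under DMSO, a log2 change of -1.35 (SE 0.08), and the repriming enzyme PRIMPOL fell by 1.25 (SE 0.15). The translesion polymerases POLK (0.89, SE 0.10) and REV1 (0.38, SE 0.09) rose. No test was made of the difference between these lists and the replicative polymerases.

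Cell-cycle genes moved with the treatment as well, beside falls in 32.7% and rises in 32.8% of all genes tested. Of 21 tested G1/S genes, 15 fell and 5 rose, with a median of -0.61; the maintenance methyltransferase DNMT1 (-2.01, SE 0.05) and the thymidylate synthase TYMS (-1.39, SE 0.06) fell, and the cyclins CCND1 (0.60, SE 0.06) and CCNA2 (0.42, SE 0.05) rose. Of 19 tested G2 and mitosis genes, 13 rose and 5 fell, with a median of 0.26; the mitotic kinases TTK (1.14, SE 0.06) and PLK1 (0.65, SE 0.04) rose, and TOP2A (-0.89, SE 0.04) and the kinase AURKB (-0.75, SE 0.07) fell. The part of a shift in cell-cycle phase in the fall of the polymerase genes was not tested.

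**Figure D5:**
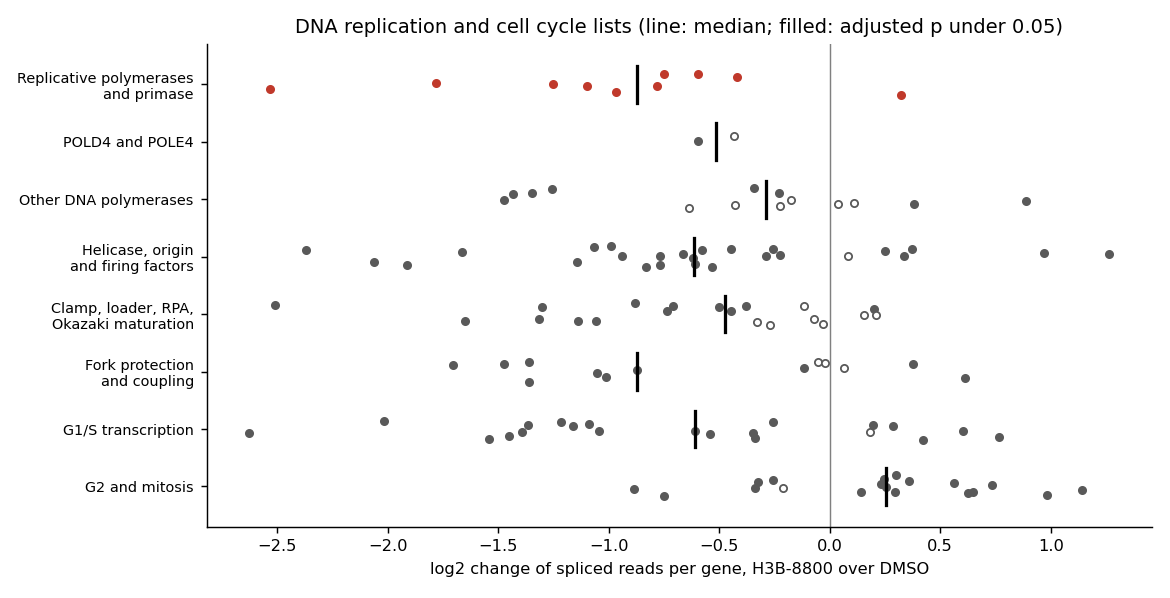
The log2 change of spliced reads per gene, H3B-8800 over DMSO (2 libraries each), for each tested gene of the lists, with a line at the median and filled points where the adjusted p was under 0.05. The replicative polymerases and primase have their median at -0.87, helicase, origin and firing factors at -0.61, and G2 and mitosis genes at 0.26.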

How the data were processed

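Per the submitters' processing notes, HISAT2 2.0.4 and the builds hg38 and mm10 were used, and per the labels' protocols the libraries were stranded and polyA-selected. The counting tool and its strand setting are not given in these sources, so overlapping and antisense genes are uncertain. The deposited files, without a header, hold for every intron 2 counts of reads and an RPKM, for 1 RefSeq transcript per gene. The deposited RPKM equals the first count divided by intron length and a library total, and gave those totals; RPKM was not tested. The first count was taken as intronic reads and its excess in the second as spliced reads, as inferred from the values. Even numbers made up 70.9% to 72.3% of non-zero intronic counts, so mates were probably both counted and reads are not independent. Intervals were trimmed by 1 base at each end, after which 99.9% matched introns of GENCODE release 29.

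Counts were tested with edgeR 4.0.16 (R 4.3.3; quasi-likelihood, Benjamini-Hochberg, threshold 0.05) over all features: spliced reads with a mean of at least 1 CPM per gene and TMM scaling, and intronic reads and ratios with a mean of at least 10 reads. The same minimum of 10 and the gene-level TMM factors served spliced reads per intron. Intronic reads were scaled to library totals, and the ratio was an interaction term in a model with a term per library. SEs were approximated from the F statistic. The weight of the spread shared over features, edgeR's prior degrees of freedom, was 10.9 for spliced and 21.1 for intronic reads per gene. Small p-values therefore do not rest on 2 libraries per group alone. DESeq2 1.42.0, other filters and scalings, a replicate block and leaving out libraries were alternatives. The tests were checked on simulated counts with known changes. Low counts limit single introns most, since a mean of 10 reads was the minimum. Named were all 10 genes, for each the introns with the 2 largest and the smallest ratio change among those tested (if none, the 2 with most intronic reads), and of each list the 2 genes of lowest adjusted p among rises and among falls, plus POLD4 and POLE4. Other introns in the text were picked with their values known. The genes and lists were chosen with earlier results of these data known. POLN, GINS3 and BUB1B, and the introns of these genes outside the listed ones, were not analysed here.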

Additional observations from a re-analysis of the deposited data

How the results depend on the processing

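Spliced reads per gene passed as lower in 8 or 9 of the 10 genes under each alternative run, and as higher in 1, except that without each gene's most-read intron 0 passed as higher (edgeR; 0 at an unadjusted p under 0.05). PRIM2 turned to 0.25 with the lowest count subtracted. The replicate block kept the counts per gene of spliced reads at 9 lower and 1 higher. Over 9468 genes, same-numbered libraries did not deviate together (r = 0.0489). With 2 libraries per group, this value cannot exclude a pairing that affects some genes. With the block the ratio rose in 8 genes, intronic reads rose at 3 introns, and the ratio was higher at 9 introns, against 11 without it.

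DESeq2's own size factors and TMM of intronic reads centre the general rise. Under each, intronic reads passed as lower in 3 genes and higher in 1 and as higher at 2 introns. The values of POLA1, POLD1 and POLE were then -0.51, -0.58 and -0.84 with DESeq2 and -0.50, -0.57 and -0.83 with TMM. POLE intron 45 stood at -0.49 and -0.51 and POLE2 intron 8 at -0.61 and -0.63, in the same order. DESeq2's own factors left the ratio higher in 3 genes and, per intron, higher at 3 and lower at 2, with PRIM1 at -0.35, POLA1 intron 36 at -1.31 and POLE intron 39 at -0.62. DESeq2 with library totals and DESeq2 with equal size factors were both added after seeing the data. With library totals, DESeq2 called 3 introns higher in intronic reads. Without a low-count filter 0 introns had a lower ratio (1 at an unadjusted p under 0.05).

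In introns without an annotated exon, 0 genes were lower in intronic reads or in the ratio (edgeR, and 0 at an unadjusted p under 0.05). However, POLD3, the gene that had been lower, had too few reads there to be tested. Intronic reads passed as higher in 3 of 8 tested genes, with the call of POLD1 gained (1.96) and those of POLA1 (0.31) and POLD2 (0.89) lost. POLE2 stood at 0.69 in intronic reads. The share difference was 3.54 percentage points, and that of POLD3 was 2.20. With 1 library left out, the lone library was assumed to vary like the other group. Intronic reads then passed as lower in 0 to 1 and higher in 0 to 5 genes, and per intron as lower at 0 to 4 and higher at 0 to 6. Spliced reads per intron were lower at 0 to 90 and higher at 0 to 1, and ratios higher at 6 to 10 and lower at 0 to 1. The counts of 0 came without an H3B-8800 library, where edgeR's prior degrees of freedom in the tests of reads were between 0.946 and 1.53 for intronic reads and for spliced reads per intron; the lower ratio was lost without H3B-8800 replicate 2 (1 at an unadjusted p under 0.05). Values that turned were PRIM1 (0.31 and 0.58) and POLE2 (0.41) in intronic reads, POLE intron 45 (range -0.21 to 1.01), POLE2 intron 8 (-0.37 to 0.55), POLD3 intron 2 in spliced reads (-0.38 to 0.16, with 0.14 between) and the ratio of POLA1 intron 36 (-0.12 to 0.56). None of these values had passed with 4 libraries. Apart from scaling and left-out data, the cause was not tested.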
